A study of Homo sapiens with 6 samples.

Results

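Translation initiation and elongation factors are the proteins that load ribosomes onto messenger RNA and drive the reading of codons. The group was taken by symbol: every gene whose name begins with EIF1 to EIF6, or with EEF1 or EEF2, except EIF2AK2. The count tables list 70 such symbols among 26364, and 60 of them reached 10 or more counts in at least 3 of the 6 libraries. All 60 also passed the low-count filter of the test across genes.

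RNA was sequenced from ZR-75-30 cells, an established human breast adenocarcinoma line of epithelial origin in which ERBB2 is amplified. The CDK12 group was infected with a lentivirus carrying CDK12 (pLVX-CDK12) and the control group with the vector alone (pLVX), so that lentiviral infection was common to both. Each group had 3 libraries, labelled biological replicates; whether they came from separate infections, from clones or from pooled cells is not given in the sources used here, and the p-values measure a difference against the spread between these libraries. CDK12, with its partner cyclin K, is a kinase of RNA polymerase II; the study's title gives its targets in these cells as the subject.

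Initiation begins when eIF2, charged with GTP and the initiator tRNA, joins the small ribosomal subunit with eIF1, eIF1A, eIF3 and eIF5. The eIF4F complex (the cap-binding protein eIF4E, the scaffold eIF4G and the helicase eIF4A) brings that subunit to the capped end of the messenger RNA. Cells restrain these steps by phosphorylating eIF2, which blocks its recharging by eIF2B, and through eIF4E-binding proteins, which keep eIF4E from eIF4G until mTOR phosphorylates them. In elongation, eEF1A delivers aminoacyl-tRNA and is recharged by the eEF1B subunits, and eEF2 moves the ribosome by a codon. CDK12 has been reported to phosphorylate the eIF4E-binding protein encoded by EIF4EBP1; the counts measure transcripts and not phosphorylation.

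The libraries held 23628890 to 26543653 counts in the CDK12 group and 21178163 to 25014857 in the control group. CDK12 stood at 2009 to 2240 CPM (counts relative to the library total, scaled between libraries by TMM) in the CDK12 libraries, against 72.8 to 81.8 CPM in the control libraries, so each library matched its label. All 8 luminal epithelial markers examined were measured, with a summed level of 11910 to 12460 CPM with CDK12 against 13560 to 14200 CPM in controls; 4 of them (KRT8, KRT18, ERBB2 and GATA3) were lower and the others did not pass. Of 5 stromal markers, 2 passed the filter, and the summed level of the list was 60.6 to 71.4 CPM with CDK12 against 46.8 to 51.5 CPM in controls; COL1A1, nearly all of that sum, was higher (log2 fold change 0.40) and COL3A1 was lower (-2.44). The summed level of 4 leukocyte markers was 2.96 to 3.17 CPM with CDK12 against 4.91 to 6.14 CPM in controls, with PTPRC lower (log2 fold change -3.02) and CD14 higher (0.85). The summed level of 3 endothelial markers was 1.41 to 2.17 CPM with CDK12 against 2.16 to 2.84 CPM in controls; none of these markers was at 0 in every library, and their part in the results below was not tested. Interferon-stimulated genes differed between the groups: their mean log2 CPM over 13 genes was 2.41 to 2.47 in the CDK12 libraries, below every control. It was highest in control replicate 1, at 5.81, with 5.02 and 4.88 in the other controls. The part of that difference in the results below was not tested.

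Transcripts of the translation factors were little different in level between CDK12 and control cells. By edgeR's quasi-likelihood test, 15 of the 60 (25%) passed a Benjamini-Hochberg adjusted p of 0.05 over all genes tested, 8 higher and 7 lower in the CDK12 libraries. Among all 14665 genes tested the share was 35.1% (16.2% higher and 18.9% lower), so the factors did not exceed the background. The median log2 fold change was -0.0098 over the 60 factors and 0.0035 over all genes, and the median size of the change, regardless of sign, was 0.07 and 0.14 on the log2 scale. The genes were not matched for level in that comparison, and the cytosolic ribosomal protein genes described below also had a median size of 0.07. In 24 factors (40%) the groups did not overlap, against 45.6% of all genes; the CDK12 libraries all lay above in 11 factors (22.1% of all genes) and all below in 13 (23.6% of all genes). When the test asked for a change beyond 1.2-fold (glmTreat), 0 factors passed, against 6.4% of all genes. In that test 3 of the 60 factors, EIF4G2, EIF5A2 and EIF4EBP3, had an unadjusted p under 0.05. Over all genes 1940 of the 14665 did, so the factors did not exceed the background there either. For 47 of the 60 the 95% interval of the fold change lay wholly within 1.2-fold in either direction.

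**Figure D1:**
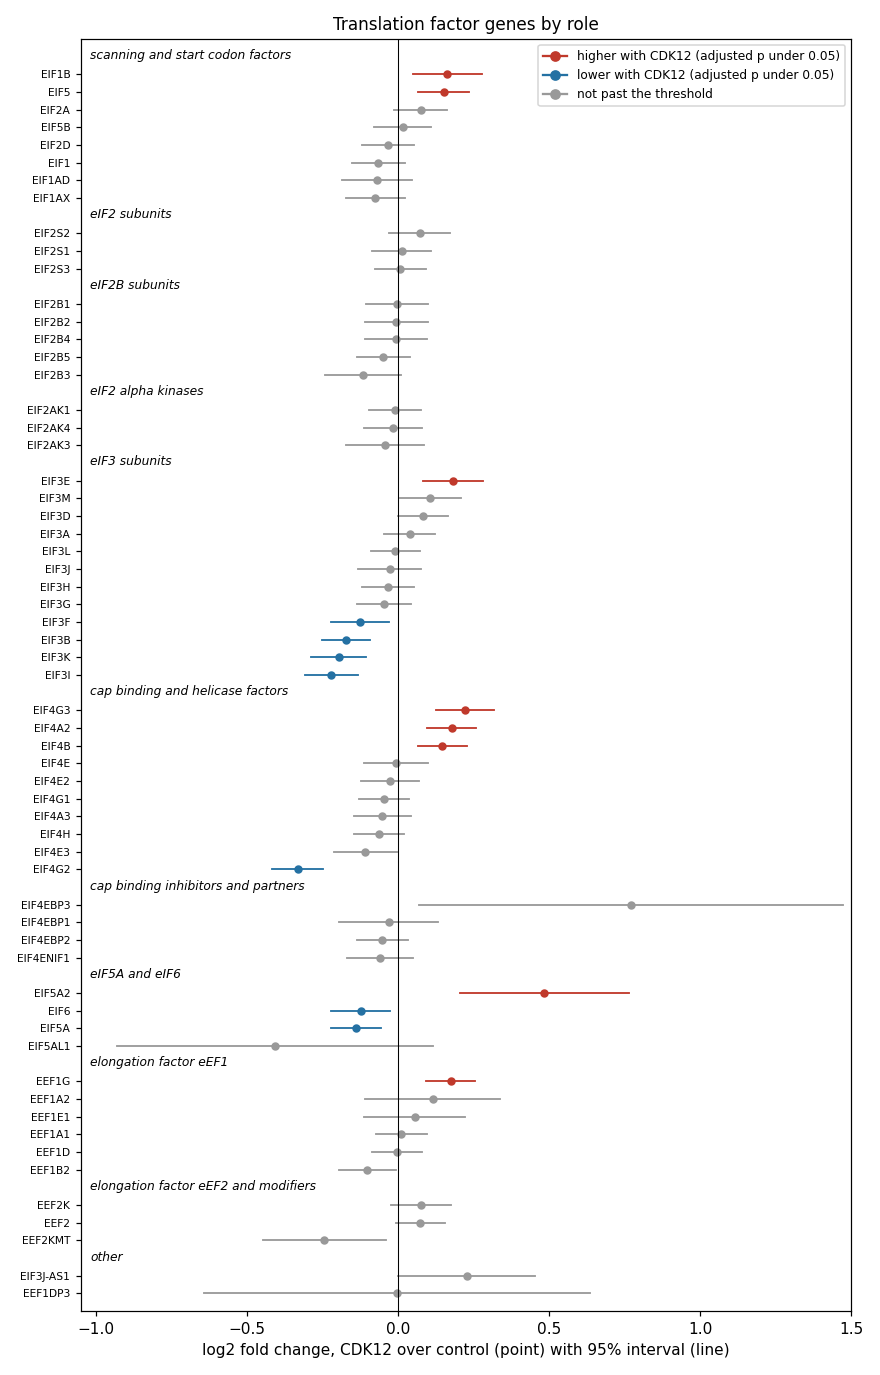
The log2 fold change (CDK12 over control) of the 60 translation factor genes, grouped by role, with its 95% interval from the edgeR fit of 3 libraries per group. The 8 genes called higher are red, the 7 called lower are blue and the 45 not called are gray; the widest intervals belong to genes with few counts, such as EIF4EBP3 and EEF1DP3.

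**Figure D2:**
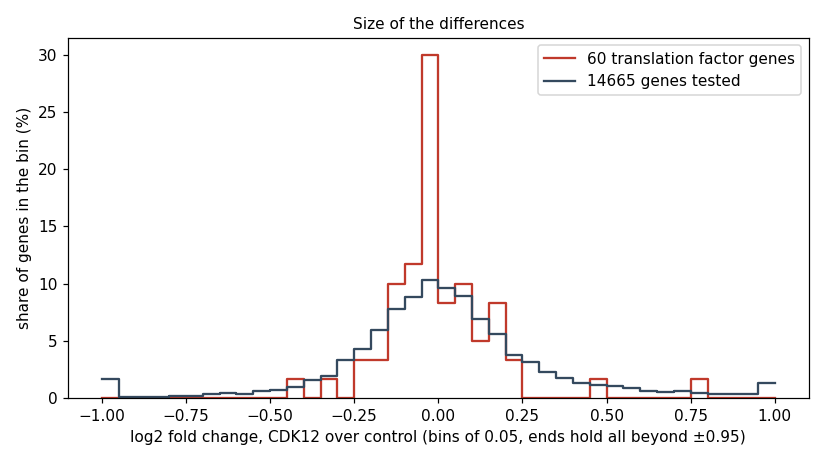
The share of genes, in percent, in each bin of log2 fold change (CDK12 over control) for the 60 translation factor genes (red) and all 14665 genes tested (dark line). The factors gather near 0, and the tails beyond a log2 fold change of 0.5 in size hold 1 factor, EIF4EBP3.

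The balance of higher and lower calls depended on how libraries were scaled, though no called factor changed sign. The sign of the family's median also depended on it, and the median was 0.03 with upper-quartile factors and with total counts alone. With TMM, 8 of the 15 calls were higher (53.3%), and DESeq2 size factors gave the same 8 higher and 7 lower. With upper-quartile factors, 12 were higher and 5 lower (70.6% higher), and with total counts alone 12 were higher and 4 lower (75% higher). The calls over all genes turned the same way, with 3164 higher and 2144 lower under upper-quartile factors and 3324 higher and 2064 lower under total counts, against 2371 higher and 2772 lower with TMM. Of the 15, 11 kept their call under each of the 16 other settings examined that tested for any change: EIF4G2, EIF3I, EIF3K, EIF3B, EIF4B, EIF5, EEF1G, EIF4A2, EIF3E, EIF4G3 and EIF5A2. The exceptions, EIF3F, EIF6, EIF5A and EIF1B, are described with their roles. Without CDK12 replicate 1, 7 factors were higher and 8 lower. Without control replicate 1, 7 were higher and 6 lower, and without control replicate 3, 9 were higher and 4 lower.

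EIF4G2, a relative of the eIF4F scaffold genes, had the largest fall of any translation factor called. Its product, also known as DAP5, resembles the scaffold eIF4G but lacks the eIF4E-binding region and serves initiation that does not depend on eIF4E. EIF4G2 was at 1507, 1527 and 1436 CPM in the CDK12 libraries and 1885, 1934 and 1810 CPM in the control libraries. The 3 CDK12 libraries lay below each control library. The log2 fold change was -0.33 (SE 0.04; edgeR, adjusted p = 3.36e-07), a percent change of -20.6.

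The scaffold genes of eIF4F did not share that fall. EIF4G3, which encodes the scaffold eIF4GII, was at 96.1, 94.5 and 94.1 CPM with CDK12 and at 82.8, 84.9 and 76.8 CPM in controls. Each CDK12 library lay above each control library, and the log2 fold change was 0.22 (SE 0.05, edgeR adjusted p = 5.28e-04). EIF4G1, the principal scaffold, was at 844, 886 and 914 CPM with CDK12 and 933, 907 and 893 CPM in controls. The groups overlapped in EIF4G1 (log2 fold change -0.05, 95% interval -0.13 to 0.04, edgeR adjusted p = 0.383).

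Count ratios of 2 genes in the same library do not depend on the scaling between libraries. For every 100 counts of EIF4G1 there were 178.5, 172.4 and 157.2 counts of EIF4G2 in the CDK12 libraries and 202, 213.4 and 202.7 in the control libraries. For every 100 counts of EIF4G2 there were 6.38, 6.19 and 6.55 counts of EIF4G3 with CDK12 and 4.39, 4.39 and 4.24 in controls. Neither ratio overlapped between the groups, and the second was on average 1.47 times as high with CDK12. The exact two-sided permutation test gave p = 0.1 for each, the smallest value that 3 against 3 libraries allow; 10 ratios were computed, and 7 of them did not overlap.

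**Figure D3:**
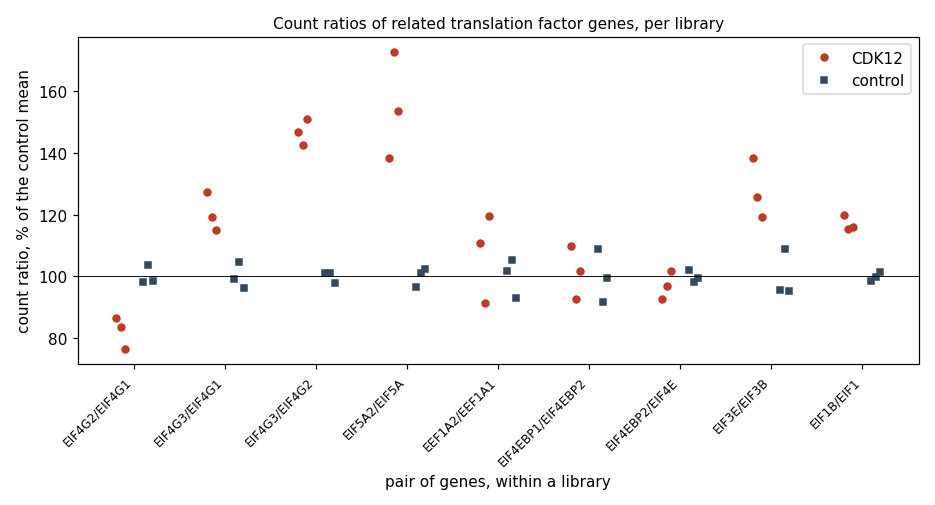
Count ratios of related translation factor genes within each library, as a percent of the control mean of that ratio; red circles are the 3 CDK12 libraries and dark squares the 3 control libraries. EIF4G2/EIF4G1 lies lower and EIF4G3/EIF4G2, EIF5A2/EIF5A, EIF3E/EIF3B and EIF1B/EIF1 lie higher in the CDK12 libraries, while EEF1A2/EEF1A1, EIF4EBP1/EIF4EBP2 and EIF4EBP2/EIF4E overlap.

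Of the genes of the helicase step, EIF4A2 and EIF4B were higher. EIF4A2, a helicase gene closely related to EIF4A1, was at 591, 589 and 565 CPM with CDK12 and 501, 525 and 517 CPM in controls. EIF4B, whose product stimulates the helicase, was at 675, 691 and 656 CPM with CDK12 and 606, 624 and 598 CPM in controls. In both genes each CDK12 library lay above each control library, with log2 fold changes of 0.18 for EIF4A2 (SE 0.04, edgeR adjusted p = 9.28e-04) and 0.15 for EIF4B (SE 0.04, edgeR adjusted p = 0.00492). EIF4H, a second stimulator of the helicase, had a log2 fold change of -0.06 (adjusted p = 0.222), and EIF4A3, a relative that works in the exon junction complex rather than in initiation, had -0.05 (adjusted p = 0.405). EIF4A1 is listed at 0 in all 6 libraries, which says nothing of its level. In the GENCODE 29 annotation 37.6% of its exonic bases lie in other listed genes on the same strand, the readthrough gene SENP3-EIF4A1 among them, and reads that fall in more than 1 gene may not have been counted. The rest of its exonic bases lie outside those genes in that annotation. The annotation used for counting is not given, and the cause of the 0 was not tested.

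The cap-binding genes and their inhibitors gave no calls, where 35.1% of all genes tested were called. EIF4E was at 82.7, 80.3 and 71.3 CPM with CDK12 and 77.0, 81.4 and 77.2 CPM in controls. The groups overlapped, and the log2 fold change of -0.01 had a 95% interval of -0.11 to 0.10. EIF4E2, a cap-binding repressor, and EIF4E3 had log2 fold changes of -0.03 and -0.11 (adjusted p = 0.692 and 0.0986 by the same test). EIF4ENIF1, which encodes a carrier of eIF4E into the nucleus and into RNA granules, had -0.06 (adjusted p = 0.412).

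None of the 3 genes of eIF4E-binding proteins passed the test. EIF4EBP2 was at 178, 181 and 169 CPM with CDK12 and 183, 186 and 179 CPM in controls, with overlap (log2 fold change -0.05, 95% interval -0.14 to 0.03). EIF4EBP1 was at 17.5, 15.03 and 15.4 CPM with CDK12 and 17.9, 15.3 and 16.0 CPM in controls, again with overlap (log2 fold change -0.03, 95% interval -0.19 to 0.13). EIF4EBP3 had 18, 14 and 19 counts with CDK12 and 6, 7 and 14 counts in controls. At these counts the groups touched, since 14 counts occurred in both, although the scaled levels did not overlap. EIF4EBP3 had a log2 fold change of 0.77 (SE 0.34) and did not pass (edgeR adjusted p = 0.0799); it passed without control replicate 3 (adjusted p = 0.0357). It shares 73.4% of its exonic bases with the readthrough gene ANKHD1-EIF4EBP3 in GENCODE 29, so its counts are uncertain. Per 100 counts of EIF4E there were 216, 226 and 237 counts of EIF4EBP2 with CDK12 and 238, 229 and 232 in controls, which overlap.

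The eIF3 complex, the largest of the initiation factors, binds the small ribosomal subunit and links it to eIF4G. Of its 14 listed genes 12 were tested, with 4 lower and 1 higher and the other 7 short of the threshold. That is 41.7%, against a background of 35.1%. EIF3C and its near-identical copy EIF3CL had 3 counts between them over all 6 libraries, and nothing is said of their level: reads that match both copies may not have been counted.

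EIF3I and EIF3B, whose products form a module with that of EIF3G, both fell. EIF3I was at 104, 102 and 105 CPM with CDK12 and 119, 120 and 124 CPM in controls. EIF3B was at 265, 263 and 264 CPM with CDK12 and 298, 290 and 305 CPM in controls. The groups did not overlap in either gene, and the log2 fold changes were -0.22 for EIF3I (SE 0.04, edgeR adjusted p = 2.00e-04) and -0.17 for EIF3B (SE 0.04, edgeR adjusted p = 0.00116). EIF3G, the remaining member of that module, was at 93.6, 91.2 and 91.7 CPM with CDK12 and 93.5, 93.5 and 98.5 CPM in controls and did not pass (log2 fold change -0.05, 95% interval -0.14 to 0.04).

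The genes of the larger eIF3 core went both ways. EIF3K was at 136, 123 and 129 CPM with CDK12 and 144, 152 and 148 CPM in controls, without overlap (log2 fold change -0.20, SE 0.04, edgeR adjusted p = 0.00103). EIF3F was at 99.8, 90.7 and 93.8 CPM with CDK12 and 99.7, 103 and 107 CPM in controls, and the groups overlapped. Its log2 fold change of -0.13 (SE 0.05, edgeR adjusted p = 0.0368) did not pass under 7 other settings, among them the DESeq2 Wald test (adjusted p = 0.0702), total counts alone (0.166) and the fits without CDK12 replicate 2 (0.174), CDK12 replicate 3 (0.0899), control replicate 2 (0.0632) or control replicate 3 (0.193). EIF3E was at 870, 786 and 748 CPM with CDK12 and 678, 750 and 690 CPM in controls. CDK12 replicate 3 lay just under control replicate 2, so the groups overlapped in EIF3E, and the log2 fold change was 0.18 (SE 0.05, edgeR adjusted p = 0.00412).

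The other subunits did not pass. EIF3M had a log2 fold change of 0.11 (95% interval 0.01 to 0.21, edgeR adjusted p = 0.0923) and EIF3D, whose product can itself bind the cap, 0.08 (95% interval 0.00 to 0.16, edgeR adjusted p = 0.109). EIF3M and EIF3D passed as higher with total counts alone (adjusted p = 0.0187 and 0.0152) and with upper-quartile factors (0.0228 and 0.0221), and EIF3M also without CDK12 replicate 3 (0.0176). EIF3A, EIF3H, EIF3J and EIF3L had log2 fold changes between -0.03 and 0.04.

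The sum of the 12 eIF3 genes was 3979 ± 138 CPM with CDK12 and 3946 ± 74.1 CPM in controls (SD, n = 3 each), a difference smaller than the spread between libraries. Within that sum the makeup differed. EIF3E made up 21.1%, 19.8% and 19.5% of the eIF3 counts in the CDK12 libraries and 17.5%, 18.6% and 17.6% in the control libraries, without overlap. EIF3B made up 6.43%, 6.62% and 6.87% with CDK12 and 7.68%, 7.20% and 7.76% in controls, also without overlap. The shares of EIF3I, EIF3F, EIF3K, EIF3L and EIF3H also lay below every control, and that of EIF3D above. In EIF3L and EIF3H the levels themselves overlapped. These shares add up to the whole, so a rise in the share of EIF3E lowers those of the rest.

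**Figure D4:**
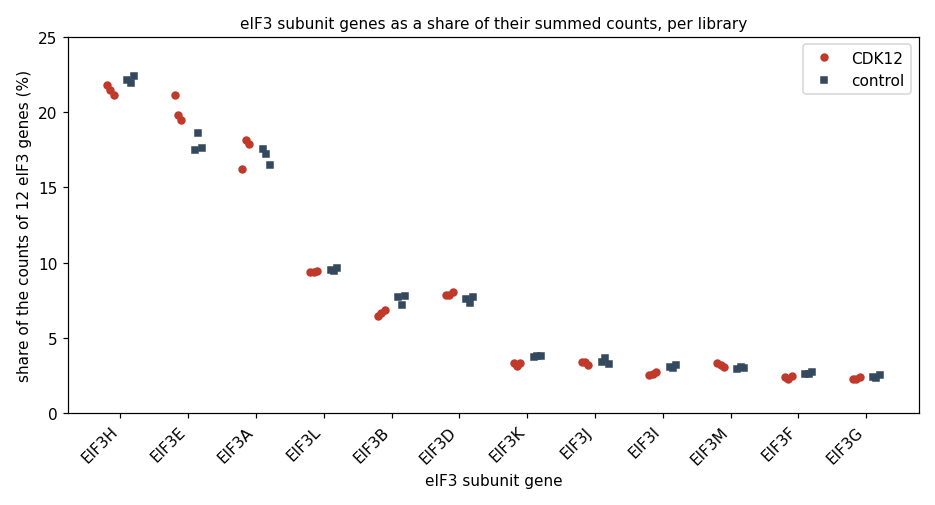
Counts of each eIF3 subunit gene as a percent of the counts of the 12 measured eIF3 genes, in each library; red circles are the 3 CDK12 libraries and dark squares the 3 control libraries. EIF3E takes 19.5% to 21.1% with CDK12 and 17.5% to 18.6% in controls, and EIF3D also lies higher with CDK12. EIF3B, EIF3K, EIF3I, EIF3F, EIF3L and EIF3H lie lower with CDK12. Shares are not corrected for gene length.

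Of the 8 genes of scanning, start codon choice and subunit joining, 2 rose and none of the others passed. That is 25%, against 35.1% of all genes tested. EIF5, which encodes the protein that triggers GTP hydrolysis on eIF2 at the start codon, was at 839, 827 and 781 CPM with CDK12 and 726, 762 and 717 CPM in controls. All 3 CDK12 libraries lay above the controls, and the log2 fold change was 0.15 (SE 0.04, edgeR adjusted p = 0.00532). EIF1B, a relative of the start codon gatekeeper gene EIF1, was at 57.0, 52.2 and 49.8 CPM with CDK12 and 46.4, 46.4 and 49.3 CPM in controls. The groups were separated by a narrow gap, between CDK12 replicate 3 and control replicate 3. The log2 fold change of EIF1B was 0.16 (SE 0.06, edgeR adjusted p = 0.0245), and it did not pass without CDK12 replicate 1 (adjusted p = 0.155), control replicate 1 (0.0882) or control replicate 2 (0.0826).

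EIF1 itself had a log2 fold change of -0.07 (95% interval -0.15 to 0.02). Per 100 counts of EIF1 there were 21.5, 20.7 and 20.8 counts of EIF1B with CDK12 and 17.7, 17.9 and 18.2 in controls, without overlap; this pair and that of EIF3E with EIF3B were chosen after their levels were seen. EIF1AX, a partner of eIF1 in scanning, EIF5B, which joins the large subunit, and EIF2A and EIF2D, which can deliver initiator tRNA in other ways, had log2 fold changes between -0.08 and 0.08. EIF2A passed as higher with total counts alone (adjusted p = 0.0331) and upper-quartile factors (0.0436).

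The genes of eIF2, of eIF2B and of the 3 eIF2 kinases in the family gave no calls, where 35.1% of all genes tested were called. EIF2AK2 was left out of the family, so that statement does not cover it. EIF2S1, which encodes the subunit that the kinases phosphorylate, was at 150, 143 and 132 CPM with CDK12 and 139, 148 and 135 CPM in controls, with overlap (log2 fold change 0.01, 95% interval -0.09 to 0.11). EIF2S2 and EIF2S3 had log2 fold changes of 0.07 (95% interval -0.03 to 0.17) and 0.01 (-0.08 to 0.09). The 5 genes of eIF2B, the exchange factor, lay between -0.12 for EIF2B3 and -0.0048 for EIF2B1.

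The groups overlapped in the 3 kinase genes of the family. EIF2AK1, which encodes the heme-regulated kinase HRI, was at 311, 295 and 282 CPM with CDK12 and 298, 303 and 294 CPM in controls (log2 fold change -0.01, 95% interval -0.10 to 0.08). EIF2AK3, which encodes the endoplasmic reticulum stress kinase PERK, had a log2 fold change of -0.04 (95% interval -0.17 to 0.09). EIF2AK4, which encodes the amino acid sensor GCN2, had -0.02 (95% interval -0.11 to 0.08).

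The paralogues EIF5A and EIF5A2 went apart. Both encode eIF5A, the protein that carries the amino acid hypusine and helps ribosomes through stretches such as consecutive prolines. EIF5A was at 159, 155 and 153 CPM with CDK12 and 171, 170 and 174 CPM in controls. EIF5A2 was at 3.75, 4.57 and 4.002 CPM with CDK12 (101, 111 and 96 counts) and 2.81, 2.93 and 3.04 CPM in controls (64, 61 and 75 counts). The groups did not overlap in either gene, but they lay in opposite directions. Per kilobase of exon EIF5A2 had 0.735 CPM with CDK12 and 0.523 CPM in controls, far less than EIF5A with 55.4 CPM with CDK12 and 61.0 CPM in controls.

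EIF5A had a log2 fold change of -0.14 (SE 0.04, edgeR adjusted p = 0.00851) and EIF5A2 one of 0.48 (SE 0.14, edgeR adjusted p = 0.00704), the largest rise of any factor called. Per 100 counts of EIF5A there were 2.36, 2.95 and 2.62 counts of EIF5A2 with CDK12 and 1.65, 1.72 and 1.75 in controls. The ratio did not overlap and was 1.55 times as high on average (exact permutation p = 0.1, the smallest possible). EIF5A did not pass with total counts alone (adjusted p = 0.0594) or without control replicate 3 (adjusted p = 0.0521). The processed copy EIF5AL1 had 15 to 23 counts with CDK12 and 20 to 25 in controls and did not pass (adjusted p = 0.222); reads of EIF5A may be assigned to it.

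EIF6, which encodes a factor that keeps free large subunits from joining small ones, was at 98.5, 87.6 and 97.1 CPM with CDK12 and 106, 99.4 and 103 CPM in controls. The groups did not overlap, though CDK12 replicate 1 lay close to control replicate 2. The log2 fold change was -0.12 (SE 0.05, edgeR adjusted p = 0.0448). EIF6 did not pass under 8 other settings, including the DESeq2 Wald test (adjusted p = 0.087), upper-quartile factors (0.159), and the fits without CDK12 replicate 2 (0.295), control replicate 1 (0.176) or control replicate 3 (0.115).

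Among elongation factors only EEF1G passed, of 6 genes with EEF1 symbols (EEF1E1 among them) and 3 genes of eEF2 and its modifiers. That is 16.7% of the 6 and 0% of the 3, against 35.1% of all genes tested. EEF1G, which encodes the gamma subunit of the eEF1 exchange complex, was at 1186, 1193 and 1166 CPM with CDK12 and 1009, 1071 and 1062 CPM in controls. Each CDK12 library lay above each control library, with a log2 fold change of 0.17 (SE 0.04, edgeR adjusted p = 0.00109). The catalytic exchange subunits of the same complex did not follow it past the threshold: EEF1B2 had a log2 fold change of -0.10 (95% interval -0.20 to -0.01, edgeR adjusted p = 0.0819) and EEF1D one of -0.0033 (95% interval -0.09 to 0.08). EEF1B2 passed as lower without CDK12 replicate 1 (adjusted p = 0.00636).

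EEF1A1, the carrier of aminoacyl-tRNA, held the most counts of the family. It was at 6058, 6255 and 6296 CPM with CDK12 and 5943, 6185 and 6343 CPM in controls, with overlap (log2 fold change 0.01, 95% interval -0.07 to 0.09). It has many processed pseudogenes, so some of its reads may not have been counted. EEF1A2, the paralogue found mainly in muscle and nerve and overexpressed in some breast cancers, was at 7.06, 6.01 and 7.92 CPM with CDK12 and 6.37, 6.86 and 6.21 CPM in controls, with overlap (log2 fold change 0.11, 95% interval -0.11 to 0.34).

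EEF2, the translocase, was at 1918, 1887 and 1986 CPM with CDK12 and 1867, 1780 and 1858 CPM in controls. The groups did not overlap, but the difference did not pass (log2 fold change 0.07, edgeR adjusted p = 0.159); it did with total counts alone (0.0245) or upper-quartile factors (0.0369). EEF2K, which encodes the kinase that inactivates eEF2, had a log2 fold change of 0.08 (95% interval -0.02 to 0.17). EEF2KMT, which encodes a methyltransferase of eEF2, was at 6.62, 6.26 and 6.17 CPM with CDK12 and 7.38, 7.43 and 7.75 CPM in controls. The CDK12 libraries all lay below the controls, but the log2 fold change of -0.24 did not pass (edgeR adjusted p = 0.0559). EEF1E1, whose product belongs to the multi-tRNA-synthetase complex, had 0.05 (adjusted p = 0.64).

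**Figure D5:**
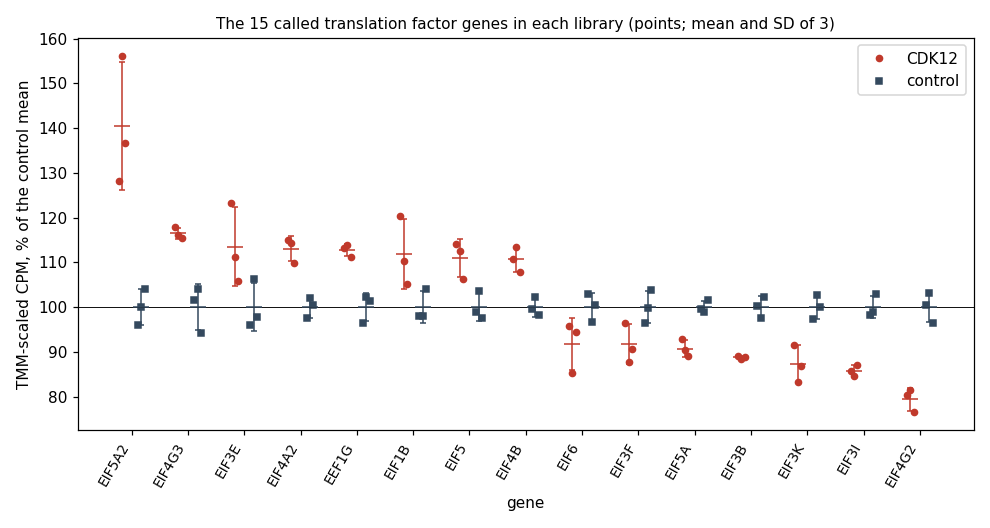
Scaled CPM of the 15 called translation factor genes in each library as a percent of the control mean; circles are the 3 CDK12 libraries, squares the 3 control libraries, and bars the mean and SD of 3. The groups overlap in EIF3E and EIF3F and lie apart in the other 13 genes, from EIF5A2 at the upper end to EIF4G2 at the lower end.

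Levels of different genes were compared per kilobase, using the summed exon length of each gene in GENCODE 29 (on GRCh38, which need not match the exons counted). On that scale EEF1A1 stood first, at 1043 CPM per kilobase with CDK12 and 1035 in controls, and EEF2 was at 479 with CDK12 and 456 in controls. EEF1G was at 435 with CDK12 and 386 in controls, and EIF4G2 at 172 with CDK12 and 217 in controls. Together the 70 symbols took 2.25%, 2.24% and 2.22% of all counts in the CDK12 libraries and 2.14%, 2.19% and 2.18% in the control libraries. EEF1A1 alone took 0.614% to 0.639% with CDK12 and 0.585% to 0.625% in controls. Those shares were not scaled between libraries beyond the total.

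Many genes of the translation apparatus begin their messenger RNA with a terminal oligopyrimidine tract, a C followed by a run of C and T, through which mTOR and LARP1 control their translation. RefSeq start sequences (GRCh38.p14) were searched, on the strand of the gene, for a C at the annotated start followed directly by at least 4 further C or T. Of 48 tested factors with a start sequence, 12 (25%) had such a start, against 7.18% of 11443 genes tested and 74.2% of 62 ribosomal protein genes. The 4 called factors with such a start are shown, with EEF1A1 and EEF2 as factors not called. For comparison, EEF1G and EIF3I stand for the 10 called factors without it (5 higher and 5 lower), chosen after their values were seen. Both have an A at the annotated start and a shorter run of C and T directly after it. EIF3E, the remaining called factor, had no start sequence. Each line runs 5′ to 3′ over 30 bases centered on the start, with any pyrimidine run of that length from the start base in capitals.
EIF4A2 (higher with CDK12, chr3:186783562-186783591, plus strand): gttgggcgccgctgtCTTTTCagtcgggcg
EIF4B (higher with CDK12, chr12:53006441-53006470, plus strand): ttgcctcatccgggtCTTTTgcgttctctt
EIF3K (lower with CDK12, chr19:38619173-38619202, plus strand): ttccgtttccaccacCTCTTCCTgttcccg
EIF3F (lower with CDK12, chr11:7987322-7987351, plus strand): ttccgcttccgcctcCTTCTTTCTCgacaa
EEF1A1 (not called, chr6:73521018-73521047, minus strand): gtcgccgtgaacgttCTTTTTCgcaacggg
EEF2 (not called, chr19:3985449-3985478, minus strand): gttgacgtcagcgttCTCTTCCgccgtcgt
EEF1G (higher with CDK12, chr11:62573877-62573906, minus strand): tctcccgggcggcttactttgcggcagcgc
EIF3I (lower with CDK12, chr1:32222392-32222421, plus strand): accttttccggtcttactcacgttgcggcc

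Genes with such a start had no common direction. Of the 12 factors, EIF4A2 and EIF4B rose and EIF3K and EIF3F fell, while the other 8 missed the threshold. The median log2 fold change of the 12 was 0.04. Of the 36 without it, 5 rose and 5 fell, with a median of -0.04. Among all genes tested, 34.2% of the 822 with a pyrimidine start and 36.1% of the 10621 without one were called. A match at an annotated start is a description of those letters, and the start used in these cells was not measured.

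Partners outside the family were read from a list of 37 genes, of which 36 were tested. Of these, 6 rose and 5 fell (30.6%, against 35.1% of all genes), with a median log2 fold change of -0.01. PDCD4, which encodes an inhibitor of the eIF4A helicase, averaged 252 ± 6.51 CPM with CDK12 and 207 ± 10.9 CPM in controls (SD, n = 3 each; log2 fold change 0.28, edgeR adjusted p = 1.1e-05). PPP1R15A, which encodes the stress-induced subunit of the eIF2 phosphatase, averaged 338 ± 4.82 CPM with CDK12 and 285 ± 12.4 CPM in controls (log2 fold change 0.24). MCTS1, a partner in tRNA removal and reinitiation, had a log2 fold change of 0.20. CYFIP1, whose product binds eIF4E, averaged 208 ± 8.48 CPM with CDK12 and 238 ± 4.57 CPM in controls (log2 fold change -0.19, edgeR adjusted p = 6.61e-04). VARS, the valyl-tRNA synthetase gene, fell with a log2 fold change of -0.20. RPS6KB2, a ribosomal S6 kinase gene, fell with -0.13 (edgeR adjusted p = 0.0336) but did not pass under 6 other settings, among them the DESeq2 Wald test (0.0682) and the fits without CDK12 replicate 2 (0.129), control replicate 1 (0.0733) or control replicate 3 (0.191).

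Genes of the cytosolic ribosome itself were divided too. Of 79 ribosomal protein genes 78 were tested, and 14 rose and 11 fell (32.1%), with a median log2 fold change of -0.02. RPS3A averaged 640 ± 49.8 CPM with CDK12 and 548 ± 24.9 CPM in controls (SD, n = 3 each). RPL13A (log2 fold change 0.21) and RPL17 (0.36) also rose, and RPL28 (-0.27) and RPS21 (-0.24) fell. Ribosomal protein genes have many near-identical processed copies, so their counts are uncertain. In none of the factor, partner and ribosomal protein lists did a gene pass the test beyond 1.2-fold. At an unadjusted p under 0.05 that test named 3 of 60, 1 of 36 and 1 of 78 of them. Over all genes it named 1940 of 14665.

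The remaining symbols of the family add little. EIF3J-AS1, a noncoding neighbor of EIF3J on the opposite strand, had a log2 fold change of 0.23 and did not pass (adjusted p = 0.112). The pseudogene EEF1DP3, whose exons lie within those of FRY so that its counts are uncertain, had -0.0043. EIF1AD, a nuclear protein gene named for its eIF1A domain, had -0.07 (edgeR adjusted p = 0.354). It was grouped above with the 8 genes of scanning. Besides EIF3C, EIF3CL and EIF4A1, the symbols under the filter were EIF4E1B, EIF1AY, the readthrough gene EEF1E1-BLOC1S5 and the pseudogene EIF3IP1. The rest were the noncoding genes EIF1B-AS1, EIF2B5-AS1 and EIF1AX-AS1, antisense by symbol. None of these 10 symbols exceeded 11 counts in a library.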

How the data were processed

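Each deposited file gives whole-number read counts by gene symbol for 1 library, as the authors produced them. Per the labels' protocols, polyadenylated RNA was captured and stranded libraries were read as 100 nt pairs. The submitters' processing notes name STAR 2.6.0c, CASAVA 1.8, Subread 1.6.2 with featureCounts, and build hg19; the sources used here do not give the annotation, the strand setting or the handling of reads in several places or genes.

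Genes passed filterByExpr of edgeR 4.0.16 (minimum count 10, minimum total 15), were scaled by TMM and were compared by the two-sided quasi-likelihood F test with Benjamini-Hochberg adjustment, threshold 0.05. The SE is the log2 fold change over the square root of F, and intervals are unadjusted. Levels are TMM-scaled CPM. The rule named the called protein-coding factors, a fixed set of initiation control and elongation genes, and up to 3 called genes per direction and partner list; other symbols were named to account for the family. A gene that the rule names is not reported here. Members and lists were chosen with earlier results of these data known. Alternatives were other scalings and filters, DESeq2 1.42.0, limma-voom (limma 3.58.1), a replicate block, CDK12 left out, and each library left out. Tested on simulated counts, the fit missed most changes of 1.1-fold and many of 1.2-fold. Far fewer genes were changed in those counts than were called here, so the missed share need not hold for these factors. A factor that did not pass may still differ by as much as its interval allows. A count of 0 allows up to 3 counts, 0.113 to 0.142 CPM, for counting error only.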

Additional observations from a re-analysis of the deposited data

How the results depend on the processing

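The 8 factors called higher were 12 with upper-quartile scaling or with total counts, and 7 to 9 when single libraries were left out; the 7 called lower were 4 with total counts, and 4 to 8 when single libraries were left out. Over all genes the scaling moved calls alike, with 3164 higher and 2144 lower under upper-quartile factors and 3324 higher and 2064 lower under total counts, against 2371 higher and 2772 lower. The test beyond 1.2-fold, chosen after seeing the data, called 0 factors higher and 0 lower, against 459 genes higher and 479 lower overall. With the replicate number as a block, 8 factors were higher and 7 lower, as without it, and no factor's call changed. Libraries of the same number had deviations correlating at -0.0649, 0.0539 and 0.031, and the labels give the numbers no shared origin, so they were not taken as pairs. The median log2 fold change of translation factor genes was between -0.0351 and 0.00296 when single libraries were left out. Of 45 factors not called, 39 were called under none of the 16 settings that tested for any change, and 0 called factors changed sign. With a minimum of 1 CPM in 3 libraries, 57 factors were tested. Counts under 30 in every library limit EIF5AL1, EEF1DP3 and EIF4EBP3, whose intervals are wide.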
